A study of Mus musculus with 2 samples.

Results

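Heat shock and unfolded protein genes were examined in mammary basal cells sorted from control mice (Ctrl basal) and from mice given clodronate liposomes (CL basal). The set is a list of 40 genes for cytosolic, mitochondrial and endoplasmic reticulum (ER) chaperones and for the regulators of the stress responses, picked by name from a table of 49492 genes. All 40 were in the table. Basal cells wrap the luminal cells of the mammary ducts and can contract, and clodronate liposomes are lipid vesicles that kill the macrophages that take them up. Both libraries came from wild-type young adult female mice and were labelled day 7. The CL basal mice had repeated intraperitoneal injections, while the Ctrl basal library carries the treatment label none in one place and saline in another. Cells were gated as lin- CD24+ CD29hi, where lin- leaves out cells stained for CD45 (white blood cells), CD31 (endothelium) or TER119 (red cells). The strain and the number of mice were not stated for these libraries, nor was an empty liposome control, although C57/B6 mice were named for other injection experiments of the study. With 1 library per group, no difference has a replicate check and no p-value is given.

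Chaperones are proteins that hold unfolded proteins and help them reach their folded form. In the cytosol, HSP70 and HSP90 machines work with DNAJ cochaperones, and heat or other protein damage raises their transcription through heat shock factor Hsf1. In the ER, the chaperone BiP (*Hspa5*) binds unfolded secretory proteins. When these pile up, the sensors IRE1 (*Ern1*), PERK (*Eif2ak3*) and *Atf6* start the unfolded protein response, which raises ER chaperones through *Xbp1* and *Atf6* and, through *Atf4*, a set of genes shared with amino acid shortage. Chaperone and early response genes are also known to be raised by enzymatic dissociation of tissue, a step that comes before cell sorting.

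No gene of the 40 differed by 1.5-fold between the libraries. Log2 fold changes (CL basal over Ctrl basal, after scaling) ran from -0.41 for *Sdf2l1* to 0.47 for *Hspb8*, with a median of 0.15. Values above 0 were in the majority: 30 of the 40 genes had one, beside 48.2% of all tested genes and 57.7% of genes with at least 1000 counts. The interval described below lay above 0 for 26 of them, and the genes together held 4.35% of the CL basal counts and 3.90% of those in Ctrl basal. Hsp90 genes, the BiP gene *Hspa5*, calreticulin (*Calr*), *Dnajb9*, *Herpud1*, *Bag3* and *Hspb8* were among the higher genes. *Hspa4l* and *Asns* were among the lower ones, and *Hspa1b*, *Hspa4*, *Xbp1* and *Dnajc3* were nearly level. The signs of *Hspa1b*, *Hspa4*, *Hspa9* and *Pdia6*, all close to 0, turned when another scaling or a correction for mean expression was used. With that correction the median of the 40 was 0.078 and 26 were above 0, and the medians of the HSP70 genes (-0.066) and HSP110 genes (-0.074) fell below 0.

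The CL basal library held 38962512 counts and the Ctrl basal library 37846008. Of all genes, 17356 had at least 20 counts over both libraries, among them all 40 members, and these are called tested genes. Of all tested genes, 6.33% were at least 1.5-fold higher in CL basal and 11.7% at least 1.5-fold lower, against 0 and 0 of the 40 members. Many tested genes have few counts and scatter widely, whereas 38 of the 40 members have at least 1000 counts. Among all genes with at least 1000 counts, only 1.04% were 1.5-fold higher and 2.21% lower, so that 0 of 38 is close to that background.

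A second count used the 95% counting interval of each log2 fold change, taken from the exact binomial interval for how each gene's counts split between the libraries. It covers counting error only, not the spread between mice. This interval lay above no change for 26 of the 40 members (65.0%) and below it for 5 (12.5%), and it held 0 for 9. Over all tested genes the shares were 25.2% above and 25.4% below. Intervals narrow as counts grow, so the closer background is the genes with at least 1000 counts, of which 41.4% lay above and 27.2% below. Of the 38 members in that class, 68.4% lay above and 13.2% below. Among the 23 members with at least 10000 counts, 21 had a log2 fold change above 0 (91.3%), beside 67.3% of all 1505 genes in that class. Their median was 0.19, and that of all genes in the class was 0.086. Intervals in this class lay above no change for 78.3% of the members and 59.1% of all genes. They lay below it for 8.70% of the members and 25.8% of all genes.

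**Figure D1:**
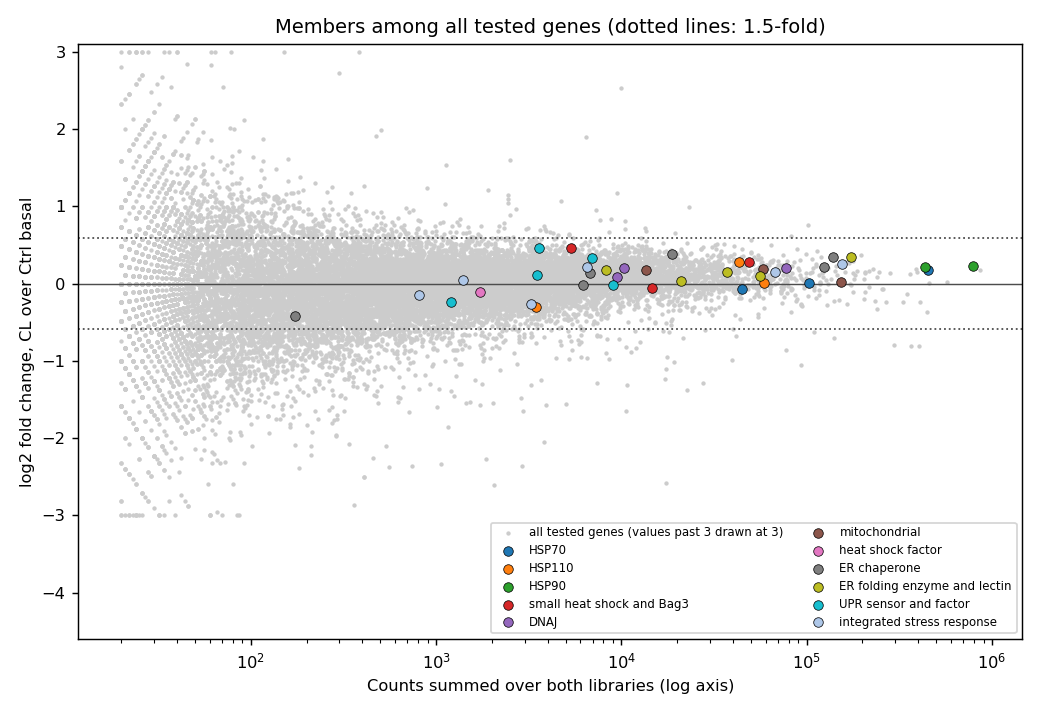
Log2 fold change (CL basal over Ctrl basal, vertical axis) against counts summed over both libraries (horizontal log axis) for all tested genes in grey and for the 40 members in colour by role. All 40 members lie within the dotted 1.5-fold lines and 30 of them above 0; 38 have at least 1000 counts, and *Sdf2l1*, with 173, is the least abundant.

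Known control elements were then looked for in the promoters. Promoter windows from RefSeq (build GRCm38.p6), each with 250 bases before a transcription start and 50 after, were found for 34 of the 40 genes; none was matched for *Hspa8*, *Hsp90aa1*, *Hsp90ab1*, *Hspa9*, *Hsf1* and *Atf6*. The ER stress element, CCAAT followed by 9 bases of any kind and CCACG, was searched on both strands. It was present in 39 of all 32851 windows (0.119%) and in the windows of 6 members, all of them ER chaperones, folding enzymes or lectins. These 6 genes are shown because they share a control element while their differences between the libraries ran from -0.013 to 0.35. The letters that define the element are in capitals, each line has 12 flanking bases on either side, and each is read 5′ to 3′ along the strand that spells the element, which is given with its place.
*Hspa5*, chr2:34772013-34772055, plus strand: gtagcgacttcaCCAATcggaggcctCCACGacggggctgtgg
*Calr*, chr8:84847063-84847105, plus strand: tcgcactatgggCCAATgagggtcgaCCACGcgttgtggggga
*Hsp90b1*, chr10:86705521-86705563, plus strand: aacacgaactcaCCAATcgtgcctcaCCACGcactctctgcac
*Hsp90b1*, chr10:86705626-86705668, minus strand: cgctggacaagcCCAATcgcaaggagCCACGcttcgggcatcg
*Canx*, chr11:50325788-50325830, minus strand: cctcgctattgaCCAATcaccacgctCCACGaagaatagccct
*Pdia6*, chr12:17266479-17266521, plus strand: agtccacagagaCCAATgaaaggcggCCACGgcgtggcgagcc
*Dnajc3*, chr14:118937815-118937857, plus strand: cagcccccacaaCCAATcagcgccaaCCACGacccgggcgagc

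*Hsp90b1* carried the element at 2 places, on opposite strands. A match is a string of letters and not a measured binding site.

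The heat shock element was searched as 3 alternating units, GAANNTTCNNGAA or TTCNNGAANNTTC, where N is any base. Such a string was present in 198 of the 32851 windows (0.603%) and in the windows of 3 members. Only exact, evenly spaced units were counted, so a window without the string need not lack an element. *Hspd1* and *Hspe1*, which encode the mitochondrial chaperonin and its cofactor, lie head to head on chromosome 1 and have overlapping first exons. A single stretch, in which 2 matches overlap, lies before the start of *Hspe1* and before 1 of 2 RefSeq starts of *Hspd1*; the window of the other *Hspd1* start held none. *Hsph1* held a match just after its start. The stretch is shown because both genes differed by nearly the same amount, 0.19 for *Hspd1* and 0.18 for *Hspe1*. One match is in capitals, read along the strand of *Hspe1*.
*Hspe1* and *Hspd1*, chr1:55088052-55088088, plus strand: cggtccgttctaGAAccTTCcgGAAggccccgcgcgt

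The shorter string of 2 units (GAANNTTC or TTCNNGAA), which is part of the longer one, was present in 15.1% of all windows and in those of 12 members. Among them were *Hspa1a*, *Hspa1b*, *Hspb1*, *Hspb8*, *Bag3* and *Dnajb4*. The median log2 fold change was 0.13 in the 12 members with it and 0.14 in the others with a window.

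The ATF4 element was searched as TGATGNAA on both strands. It was present in 1304 of all windows (3.97%) and in those of 4 members, *Asns*, *Chac1*, *Herpud1* and *Trib3*. The 3 that lie before the start are shown because these genes differed in direction, with log2 fold changes of -0.26 for *Asns*, 0.046 for *Chac1* and 0.45 for *Herpud1*. Defining letters are again in capitals.
*Asns*, chr6:7693213-7693244, minus strand: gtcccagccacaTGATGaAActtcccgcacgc
*Chac1*, chr2:119351037-119351068, minus strand: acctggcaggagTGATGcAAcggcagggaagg
*Herpud1*, chr8:94386305-94386336, minus strand: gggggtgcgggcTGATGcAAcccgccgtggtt

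The median log2 fold change of the 4 members with the ATF4 element was -0.049 and that of the other members with a window 0.15. For the heat shock element of 3 units these medians were 0.19 and 0.11. These are descriptions of few genes.

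An XBP1 element, searched as TGACGTGG on both strands, was in 222 windows (0.676%) and in 0 of those of the members.

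Levels are compared between genes as RPKM, in which counts are divided by the annotated exon length and by the scaled library size. The annotated exon length joins all isoforms, so it understates genes with long alternative ends such as *Hspa4l*, *Dnajb4* and *Dnaja1*. The set spans a wide range of levels. *Hsp90ab1*, the constitutive cytosolic HSP90, was the highest, with 3688 RPKM in CL basal against 3148 in Ctrl basal, rank 9 of all tested genes. *Hsp90aa1*, its inducible relative, followed with 1558 and 1338 RPKM, and *Hspa8*, the constitutive HSP70, with 1453 and 1284. Both lay among the first 40 genes, at ranks 35 and 37. *Calr*, *Ppp1r15a* and *Atf4* came next, at 882, 749 and 534 RPKM in CL basal. *Sdf2l1*, with 1.74 RPKM in CL basal against 2.33 in Ctrl basal, was the lowest, at rank 9403. The sensors were also low, with *Eif2ak3* at 2.39 and 2.81 RPKM and *Ern1* at 5.81 and 5.37. The third sensor, *Atf6*, was at 10.9 and 8.66 RPKM.

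**Figure D2:**
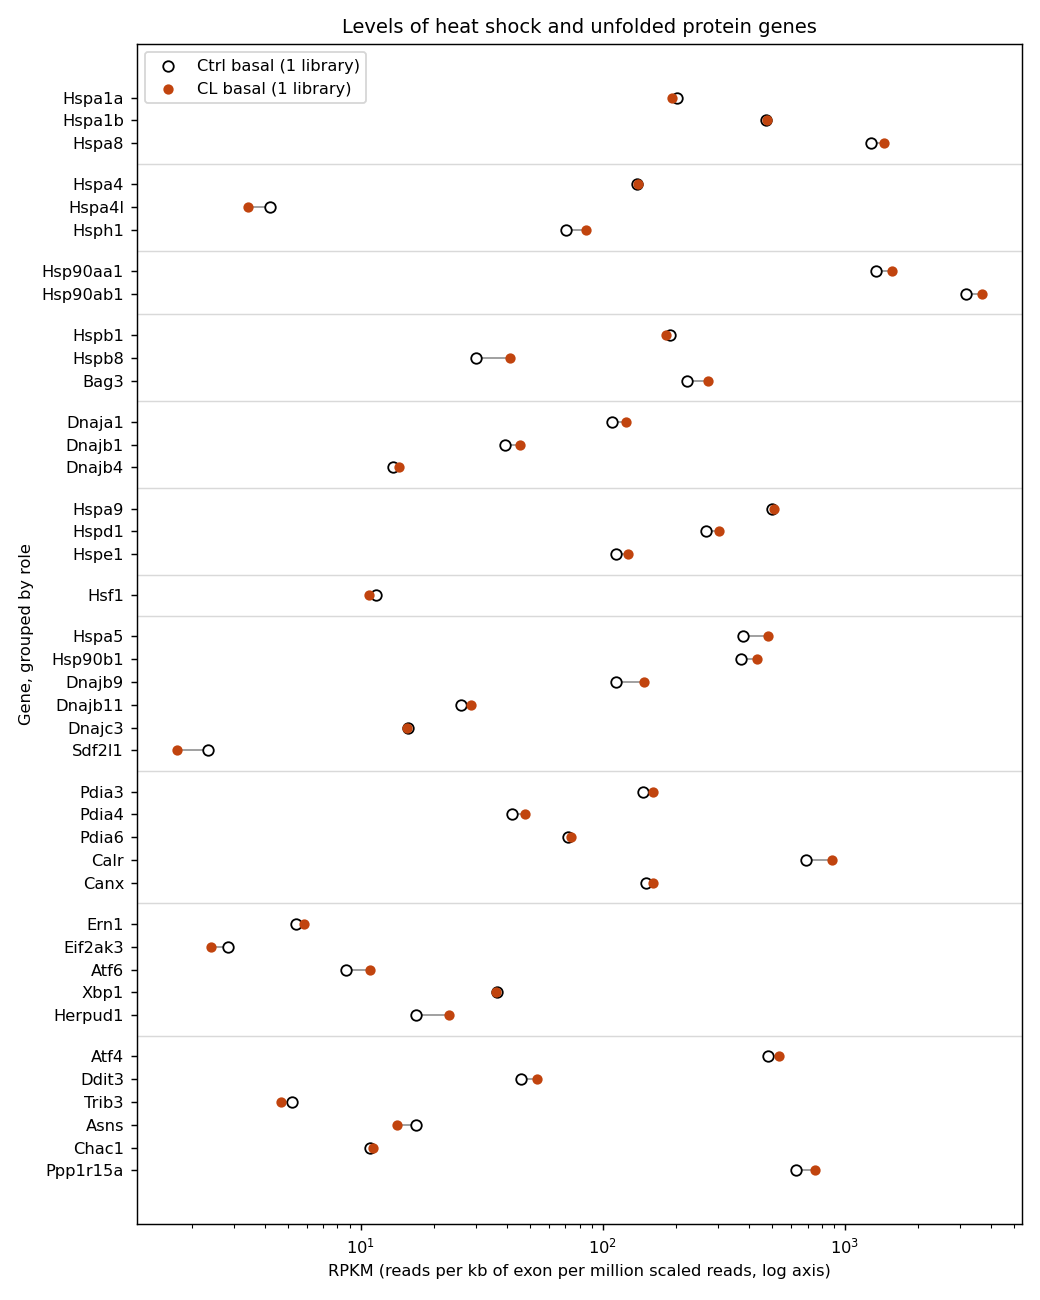
Level of each of the 40 genes in RPKM (horizontal log axis) in the Ctrl basal library (open circles) and the CL basal library (filled circles), with genes grouped by role. The points of the libraries lie within 1.5-fold of each other for all 40 genes, while the genes range from 1.74 RPKM (*Sdf2l1*) to 3688 RPKM (*Hsp90ab1*) in CL basal.

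The cytosolic HSP90 genes were the largest part of the set by counts and both were higher in CL basal. *Hsp90ab1* (chromosome 17, 45567775 to 45573271, GRCm38) had 425315 counts in CL basal against 362088 in Ctrl basal, the second highest count of any gene. The log2 fold change was 0.23 (95% counting interval 0.22 to 0.23), which is a level 1.17 times that of Ctrl basal. *Hsp90aa1* (chromosome 12, 110690605 to 110702728) had 235422 and 201711 counts, for a log2 fold change of 0.22 (0.21 to 0.23). The constitutive and the inducible HSP90 genes therefore differed by nearly the same amount. For *Hsp90aa1*, 38.0% of the 100-base stretches of its transcripts also occur in transcripts of other genes, mostly *Gm12346* and *Gm5844*, so its count depends on how such reads were assigned. *Hsp90ab1* shared no such stretch.

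Of the 3 listed cytosolic HSP70 genes, the constitutive one was higher in CL basal and the inducible pair was close to level. *Hspa8* (chromosome 9, 40800984 to 40810087), the constitutive cytosolic HSP70, had 240244 counts in CL basal against 211736 in Ctrl basal, for a log2 fold change of 0.18 (0.17 to 0.19). *Hspa1a* (chromosome 17, 34969190 to 34972156), an inducible HSP70 and a textbook readout of heat shock, had 21979 and 22963 counts, for a log2 fold change of -0.067 (-0.094 to -0.040). Its neighbour *Hspa1b* (chromosome 17, 34956436 to 34959238) had 51443 and 50829 counts, for a log2 fold change of 0.014 (-0.0042 to 0.031). These inducible genes were abundant in both libraries, at 193 and 202 RPKM for *Hspa1a* and at 477 and 473 for *Hspa1b*. They are near copies of each other: 56.5% of the 100-base stretches of *Hspa1a* and 49.9% of those of *Hspa1b* occur in other genes, above all in each other. In addition, 564 of the 2967 exonic bases of *Hspa1a* overlap *Gm20481* on the opposite strand, which itself had 5979 and 6142 counts. Summed, the pair held 73422 counts in CL basal against 73792 in Ctrl basal. The log2 fold change was -0.011 (-0.026 to 0.0037), so no difference was detectable at this depth with the main scaling. Scaled by total counts, *Hspa1a* was at -0.11 and *Hspa1b* at -0.025. With the correction for mean expression they were at -0.15 and -0.066. The sum was not tested under those settings. For *Hspa8*, 28.5% of stretches recur elsewhere, mostly in *Gm15459* and *Gm26825*.

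The HSP110 genes, whose products help HSP70 to release its substrates, went different ways. *Hsph1* had 23778 counts in CL basal against 19596 in Ctrl basal, for a log2 fold change of 0.28 (0.25 to 0.30). *Hspa4* had 29670 and 29430 counts and was level, at 0.0079 (-0.015 to 0.031). *Hspa4l* had 1546 and 1907 counts, for a log2 fold change of -0.31 (-0.40 to -0.21), the lowest in the set among genes with at least 1000 counts.

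Small heat shock proteins keep damaged proteins from clumping, and BAG3 links them to HSP70 and to autophagy. *Hspb8* (chromosome 5, 116408491 to 116422864) had 3102 counts in CL basal against 2238 in Ctrl basal. Its log2 fold change of 0.47 (0.39 to 0.55) was the highest of the 40 genes and a level 1.38 times that of Ctrl basal. *Bag3* (chromosome 7, 128523616 to 128546981), the partner of HSPB8, had 26699 and 21901 counts, for a log2 fold change of 0.28 (0.26 to 0.31). *Hspb1*, by contrast, had 7219 and 7498 counts, at -0.058 (-0.11 to -0.012). That interval holds 0 if counts are halved, and 44.0% of the stretches of *Hspb1* recur elsewhere, above all in the pseudogene *Hsp25-ps1*.

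DNAJ proteins hand substrates to HSP70, and all 3 listed cytosolic genes lay above 0, beside 57.7% of all genes with at least 1000 counts. *Dnaja1* had 41377 counts in CL basal against 35966 in Ctrl basal (0.20, interval 0.18 to 0.22), and *Dnajb1*, the inducible HSP40, had 5573 and 4816 (0.21, 0.15 to 0.26). *Dnajb4* differed least, with 4860 and 4562 counts (0.087, 0.029 to 0.15). *Hsf1*, the transcription factor of the heat shock response, had 836 and 897 counts, at -0.11 (-0.24 to 0.032), which was not detectable as a difference at this depth. The activity of HSF1 is set mainly on the protein, which these counts do not show.

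Of the mitochondrial chaperones, *Hspd1* (HSP60) had 30759 counts in CL basal against 26981 in Ctrl basal, for a log2 fold change of 0.19 (0.16 to 0.21). Its cofactor *Hspe1* (HSP10) had 7215 and 6370 counts, at 0.18 (0.13 to 0.22). The exons of these genes overlap by 112 bases on opposite strands. *Hspa9*, the mitochondrial HSP70, differed little, with 77049 and 75631 counts (0.023, 0.0085 to 0.038).

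Chaperones of the ER lumen were higher in CL basal for 4 of 6 genes by their counting intervals. Such intervals lay above no change for 41.4% of all genes with at least 1000 counts and 59.1% of those with at least 10000. *Hspa5* (chromosome 2, 34771970 to 34777547), which encodes BiP, had 78092 counts in CL basal against 61396 in Ctrl basal. The log2 fold change was 0.34 (0.33 to 0.36), a level 1.27 times that of Ctrl basal. *Dnajb9* (chromosome 12, 44205897 to 44210068), a BiP cochaperone that holds IRE1 in check, had 10599 and 8094 counts, at 0.39 (0.34 to 0.43). *Hsp90b1* (GRP94) had 66914 and 57673 counts, at 0.21 (0.19 to 0.23), and 415 of its 4032 exonic bases overlap *1810014B01Rik* on the opposite strand. A short gene within its exons, *Gm25745*, had 18730 and 13744 counts of its own. *Dnajb11* had 3550 and 3216 counts, at 0.14 (0.070 to 0.21). *Dnajc3*, a further BiP cochaperone, was level with 3092 and 3111 counts (-0.013, -0.085 to 0.060). *Sdf2l1*, a partner of BiP that is known as a sensitive target of the response, had only 74 and 99 counts, and its interval of -0.88 to 0.025 was the widest of the set.

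Among folding enzymes and lectins of the ER, *Calr* (chromosome 8, 84841850 to 84846934) stood out. Calreticulin, a calcium-binding lectin chaperone, had 97663 counts in CL basal against 76518 in Ctrl basal, for a log2 fold change of 0.35 (0.33 to 0.36). Its membrane-bound relative *Canx* had 29156 and 27097 counts, at 0.10 (0.078 to 0.13). With the correction for mean expression *Calr* was at 0.27 and *Canx* at 0.020. Of the disulfide isomerases, 2 of 3 had intervals above no change. The share was 41.4% of all genes with at least 1000 counts and 59.1% of those with at least 10000. *Pdia4* had 4388 and 3863 counts (0.18, 0.12 to 0.24), and *Pdia3*, which works with the lectins, had 19516 and 17566 (0.15, 0.12 to 0.18). *Pdia6* had 10613 and 10303 counts (0.039, -0.00026 to 0.078), a difference that was not detectable.

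The genes that carry the ER stress element thus covered the range from level (*Dnajc3*, *Pdia6*) to 0.35 (*Calr*). Their median was 0.16, and that of the members whose windows lack it was 0.14.

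**Figure D3:**
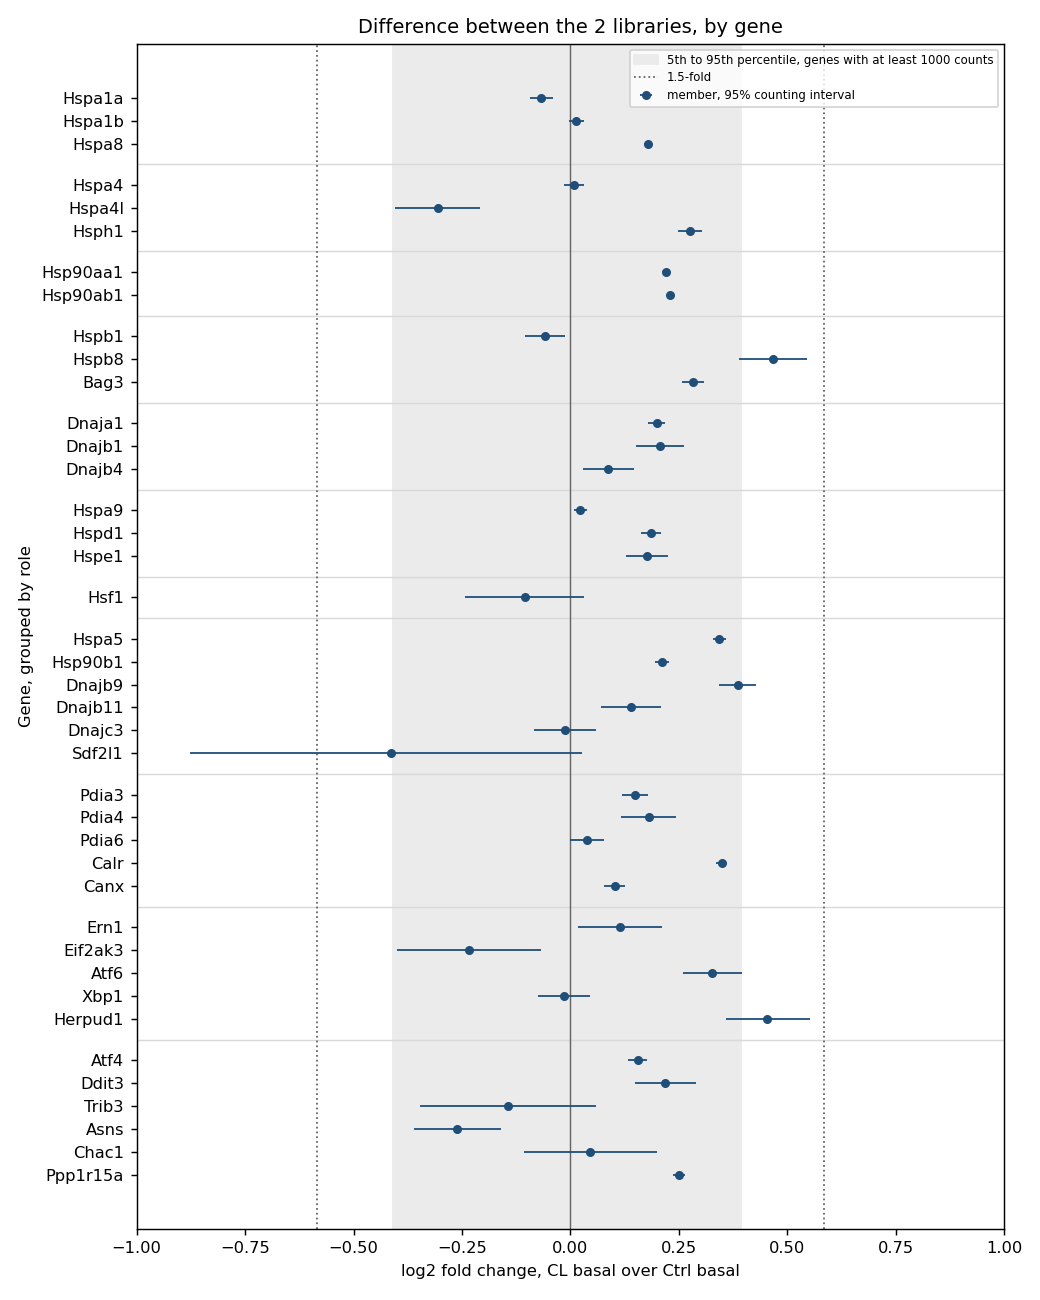
Log2 fold change of CL basal over Ctrl basal (horizontal axis) for each of the 40 genes, grouped by role, with 95% counting intervals as bars. The grey band spans the 5th to 95th percentile of all genes with at least 1000 counts (-0.41 to 0.39); *Hspb8* and *Herpud1* lie above it among members of that class, and all 40 points lie inside the dotted 1.5-fold lines.

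The sensors of the unfolded protein response differed in direction. *Atf6* (chromosome 1, 170704674 to 170867771) had 3859 counts in CL basal against 3067 in Ctrl basal, for a log2 fold change of 0.33 (0.26 to 0.40). *Ern1* had 1825 and 1682 counts, at 0.11 (0.018 to 0.21), and *Eif2ak3* had 554 and 650, at -0.23 (-0.40 to -0.069). With counts halved, the intervals of *Ern1* and *Eif2ak3* both hold 0. *Xbp1*, which IRE1 activates by splicing its RNA, had 4495 and 4527 counts and was level (-0.014, -0.074 to 0.046). Counts per gene do not tell its spliced form from the unspliced one. *Herpud1* (chromosome 8, 94386438 to 94395377), which helps to clear misfolded proteins from the ER, had 2068 and 1505 counts, for a log2 fold change of 0.45 (0.36 to 0.55). It was the second highest difference of the set, a level 1.37 times that of Ctrl basal.

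In the branch that runs through PERK and ATF4, the phosphatase subunit and the factors were higher and the metabolic target was lower. *Ppp1r15a* (GADD34), which ends the block of translation, had 84541 counts in CL basal against 70919 in Ctrl basal, for a log2 fold change of 0.25 (0.24 to 0.26). *Atf4* had 35419 and 31715 counts, at 0.16 (0.13 to 0.18), although ATF4 is set mainly by translation of its RNA. *Ddit3*, which encodes the factor CHOP, had 3509 and 3007 counts, at 0.22 (0.15 to 0.29), and 68 of its 1713 exonic bases overlap *Mars* on the opposite strand. *Asns*, the asparagine synthetase gene, had 1476 and 1764 counts, at -0.26 (-0.36 to -0.16). For *Trib3*, a pseudokinase that restrains the pathway, and *Chac1*, which breaks down glutathione, no difference was detectable. *Trib3* had 383 and 422 counts (-0.14, -0.35 to 0.059), and *Chac1* had 707 and 683 (0.046, -0.11 to 0.20).

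Another 141 genes of the same pathways, listed by function, had a median closer to 0 and a wider range, from -1.25 to 0.74. Of the 140 with at least 20 counts, 2 were past 1.5-fold higher and 3 lower, beside 6.33% and 11.7% of all tested genes. Their median log2 fold change was 0.022, beside -0.0066 over all tested genes. Among all genes with at least 1000 counts, 1.04% were past 1.5-fold higher and 2.21% lower, and the median was 0.044. By counting intervals, 49 lay above no change and 32 below, or 40 and 21 with counts halved, beside 25.2% and 25.4% of all tested genes and 41.4% and 27.2% of those with at least 1000 counts. The remaining gene, *Ern2*, a relative of *Ern1*, had 0 counts in both libraries.

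Among 36 further genes of ER folding, export and degradation, none was past 1.5-fold and the median was 0.035. In this list 12 intervals lay above no change and 7 below, or 9 and 4 with counts halved, to be read against the same shares. The list of cytosolic chaperones, cochaperones and heat shock factors, which also holds the ER proteins *Hspa13* and *Serpinh1*, had a median of 0.037 over 37 genes, and the cytosolic chaperonin with prefoldin 0.029 over 14. Mitochondrial chaperones and proteases had a median of -0.027 over 12 genes. *Hspb2*, with 14 counts in CL basal against 30 in Ctrl basal, was the one gene of the cytosolic list past 1.5-fold lower, with an interval that holds 0 when counts are halved; it is named after its values were seen.

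Stress kinases and regulators of the unfolded protein response had a median of 0.11 over 13 genes. *Eif2ak2* (PKR), an interferon-induced kinase of the same translation factor as PERK, was past 1.5-fold, with 2397 counts in CL basal against 1430 in Ctrl basal (0.74, 0.65 to 0.84). Targets of ATF4 had a median of 0.0068 over 28 genes and went both ways. *Ddit4*, an inhibitor of mTORC1, had 2661 and 1764 counts (0.59, 0.50 to 0.68). It was just past 1.5-fold and fell short of it when scaled by total counts or corrected for mean expression. *Slc7a11*, the cystine transporter, had 1084 and 2580 counts (-1.25, -1.36 to -1.15), and *Nupr1*, a stress-induced nuclear protein, had 3842 and 6797 (-0.83, -0.88 to -0.77). These were the largest differences with at least 200 counts in the lists, and *Slc7a11* and *Nupr1* lay on the other side from *Atf4*.

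Marker genes show what else differed between these libraries. Basal markers were high in both, led by *Myh11* (290054 counts in CL basal against 285095 in Ctrl basal), *Krt14* (232845 and 210758) and *Krt17* (98774 and 87869). All 10 were within 1.5-fold, with a median of 0.089. Their intervals lay above no change for 7 and below it for 3, *Krt5* (-0.23), *Oxtr* (-0.13) and *Acta2* (-0.032). Among all genes with at least 1000 counts, 41.4% lay above and 27.2% below. All 13 luminal markers had log2 fold changes below 0, 10 of them past 1.5-fold, with a median of -0.86. By counting intervals 11 lay below no change and 2, *Elf5* and *Cited1*, held 0; the list held 3236 CPM (counts divided by the scaled library size) in CL basal and 5176 in Ctrl basal. In bulk samples, fewer cells of a type and less RNA per cell cannot be told apart. The part of the luminal difference in the results above was not tested.

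The immediate early genes, which handling of tissue is known to raise, had values above 0 for 13 of 15 genes and intervals above no change for 12, with a median log2 fold change of 0.24 and a range of -0.19 to 0.52. Their summed level was 6830 CPM in CL basal and 5911 in Ctrl basal. *Egr1* had 46971 and 38465 counts (0.28), *Jun* had 44336 and 42904 (0.044) and *Fosb* had 30671 and 26457 (0.21). This shift lay in the same direction as that of the chaperones, and its part in their values was not tested.

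Plasma cells, which secrete antibody and carry a large ER, had few marker counts: 10 genes summed to 32.3 CPM in CL basal and 25.5 in Ctrl basal. Of the 7 with at least 20 counts, 5 were above 0, with a median log2 fold change of 0.26, and 3 intervals lay above no change, or 2 with counts halved. *Ighm* had the most, 428 and 296 counts (0.53, 0.31 to 0.75), followed by *Fkbp11* with 267 and 239 (0.15, -0.10 to 0.41) and *Prdm1* with 261 and 217 (0.26, -0.0028 to 0.53). *Igkc*, with 171 and 116 counts (0.55, 0.21 to 0.91), and *Jchain*, with 24 and 11, were higher as well, whereas *Mzb1* had 0 and 2 counts and *Tnfrsf17* had 0 in both. The CD45 gate is meant to remove blood cells. This list lay in the same direction as the ER chaperones, and its part in their values was not tested. The 12 macrophage markers summed to 26.0 and 27.8 CPM, of which *Mertk* gave 421 and 353 counts (0.25), *Cd68* 185 and 233 (-0.33) and *Lyz2* 118 and 138 (-0.23). Of the 8 with at least 20 counts, 6 lay below 0, with a median of -0.28, and *Mrc1*, with 86 and 168 counts (-0.95, -1.36 to -0.59), and *C1qc*, with 6 and 16 (-1.17, -3.06 to 0.0090), were past 1.5-fold lower. The highest was *Csf1r*, with 89 and 64 counts (0.46, -0.0077 to 0.96). Fibroblast markers held 214 and 262 CPM, with a median log2 fold change of -0.48, 6 of 7 intervals below no change and 2 genes past 1.5-fold lower. Endothelial markers held 320 and 400 CPM, with a median of -0.31, 4 of 6 intervals below and 1 above. The gene above was *Emcn*, with 215 and 154 counts (0.47, 0.17 to 0.79). The 6 milk protein genes held 13.4 and 33.8 CPM, and 4 of them were at 0 in CL basal and 3 in Ctrl basal. Endothelial markers such as *Cdh5* (5173 and 6462 counts) and *Pecam1* (4266 and 5503) were present in both libraries. As the background of the marker lists, 48.2% of all tested genes had values above 0. Their intervals lay above no change for 25.2% and below it for 25.4%, and 11.7% were at least 1.5-fold lower.

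**Figure D4:**
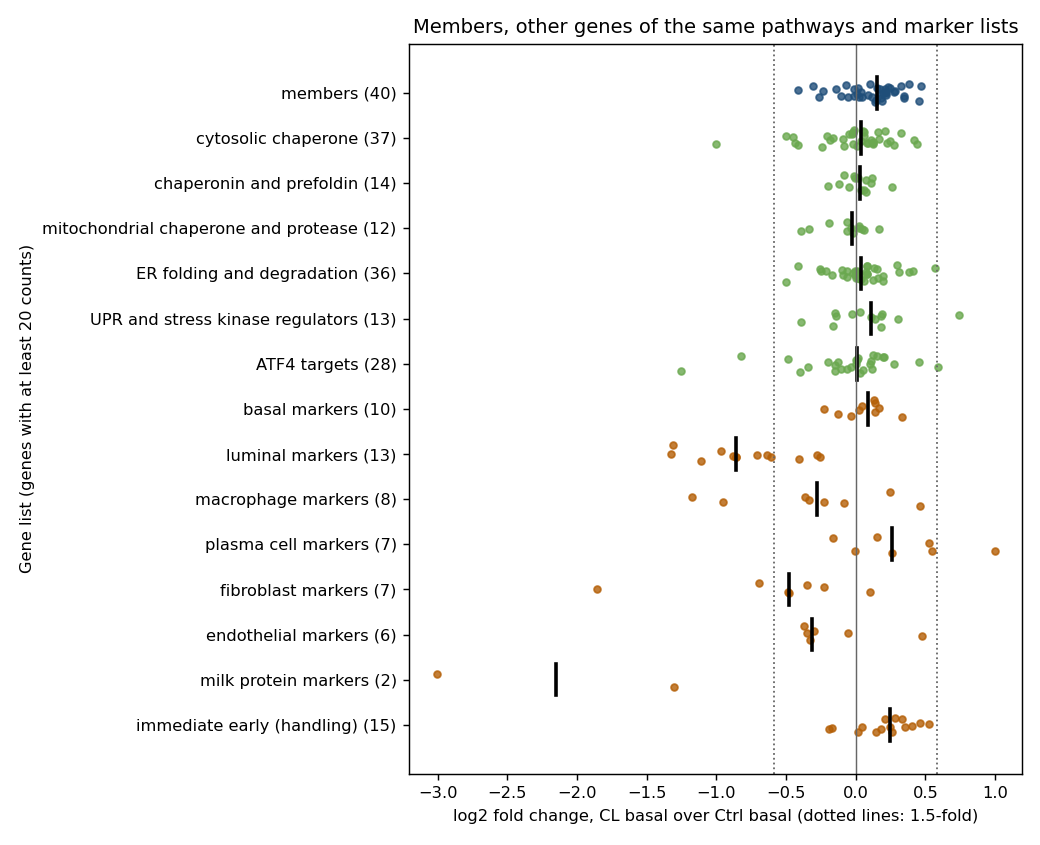
Log2 fold change of CL basal over Ctrl basal (horizontal axis) for each gene with at least 20 counts, with a row for the 40 members, for each further list of the same pathways and for each marker list; black bars are medians and bracketed numbers count genes. The members (median 0.15) and the immediate early genes (0.24) sit to the right of the further pathway lists, plasma cell markers have a median of 0.26, and luminal markers (-0.86) sit to the left.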

How the data were processed

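Total RNA of sorted basal cells was sequenced on an Illumina HiSeq instrument, 1 library per group. The authors deposited raw read counts per gene with a featureCounts-style header and with coordinates of GRCm38, which the submitters' processing notes name. Aligner, strand setting and filters were not given in the sources used here. A deposited fold column was not used. Low counts were mostly even (68.7% of values from 1 to 20 in CL basal, 67.9% in Ctrl basal; 49.9% and 49.7% above 1000), so mates may have been counted separately and intervals may be too narrow. Counts were also halved for that reason.

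Counts were scaled with TMM factors (0.9869 for CL basal, 1.0133 for Ctrl basal; edgeR 4.0.16, R 4.3.3). Fold changes used a prior count of 2, and genes with at least 20 counts were kept. Exact binomial (Clopper-Pearson) intervals of 95% came from scipy 1.17.1 in Python 3.11.15. No replicate model can be fitted, so no test was run; the code was tested on simulated data. A count of 0 allows up to 3 counts, or 0.078 CPM. Shared 100-base stretches were counted in GENCODE M21 transcripts.

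The members and lists were chosen with earlier results of these data known. Named genes were all members and, of each further list, up to 2 per direction past 1.5-fold with at least 200 counts, and up to 3 markers per list by summed count; others were chosen after their values were seen. Alternatives were scaling by total counts, the upper quartile or DESeq2 1.42.0 size factors, other filters and prior counts, thinning, removal of the trend on mean expression, and a 2-fold limit.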

Additional observations from a re-analysis of the deposited data

How the results depend on the processing

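With 0 members past 1.5-fold in either direction under every alternative tried, that count did not depend on the processing. Scaling by total counts and removal of the trend on mean expression moved the medians most, in that order of listing below. The median of the 40 members was 0.11 and 0.078 in place of 0.15, that of HSP70 genes -0.025 and -0.066, of HSP110 genes -0.030 and -0.074, of HSP90 genes 0.19 and 0.16, of small heat shock genes with *Bag3* 0.24 and 0.20, and of ER folding enzymes and lectins 0.11 and 0.064. Without the trend, DNAJ genes were at 0.12, mitochondrial chaperones at 0.097 and ER chaperones at 0.10. With the upper quartile, HSP90 genes were at 0.23. Scaling by total counts shifts all genes alike, with the median of all genes at -0.045, and removal of the trend takes off the higher median of abundant genes. *Hspa1b*, *Hspa4* and *Hspa9* changed sign in both and *Pdia6* without the trend; all 4 lay within 0.04 of 0. Under these settings 27 and 26 of 40 members were above 0, and under all others 30. Of 360 values of single members, 312 stayed within the counting interval and 7 changed sign. Of the other pathway genes, 1 in place of 2 was past 1.5-fold higher with total counts and without the trend, *Ddit4* falling short. At a 2-fold limit 0 were higher and 2 lower. With counts halved, 25 member intervals lay above no change and 3 below. No paired analysis was possible because there was 1 library on either side, and no library could be left out. Depth limits *Sdf2l1*, *Trib3*, *Eif2ak3*, *Chac1* and *Hsf1*.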
